A study of Homo sapiens with 10 samples.

Results

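The histone cluster genes are the genes of the replication-dependent histones H1, H2A, H2B, H3 and H4 that lie together on chromosomes 6 and 1. They were taken from the deposited expression table by symbol (H1-2 to H1-6, and H2AC, H2BC, H3C or H4C followed by a number), with no measured value used. This gave 57 members of 18144 genes listed: 5 H1, 15 H2A, 15 H2B, 11 H3 and 11 H4 genes. Of these, 46 lie on chromosome 6 and 11 on chromosome 1 (hg38).

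These genes supply the histone proteins that package new DNA, and in cycling cells most of their RNA is made during S phase. H2A, H2B, H3 and H4 form the core of the nucleosome, and H1 binds the linker DNA between nucleosomes. Their main transcripts have no intron and end in a conserved stem-loop, bound by SLBP, in place of the poly(A) tail of other mRNAs. A few of the genes are also known to give polyadenylated transcripts, among them H1-2, H2AC6, H2BC4, H2BC5, H2BC12 and H2BC21. Topotecan traps topoisomerase I on DNA and damages DNA mainly in cells that are replicating it.

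The libraries came from spheroids (three-dimensional cultures) of wild-type PC3 cells, a line derived from a bone metastasis of prostate cancer. Untreated spheroids (CTRL) were sampled on days 0, 3 and 7, spheroids under conventional topotecan (CON, here CONV-TOPO, the dose given at once) on days 3 and 7, and spheroids under extended exposure (EE, here EE-TOPO, small daily fractions) on days 3 and 7. There was 1 library for each treatment and day, so the 7 libraries hold no replicates, and 3 further libraries, sampled on day 1, were not analysed here. All comes from 1 cell line, and the days are those of the sample labels, while the series' design text gives a longer exposure. The TruSeq RNA kit, version 2, used for the libraries selects polyadenylated RNA and does not mark strand, so the levels below are those of histone RNA that was captured in such libraries, and reads of overlapping genes on opposite strands cannot be told apart.

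Levels are counts per 1000000 reads (CPM) as deposited. The depth estimated from the spacing of low values was 15.03 M to 22.5 M reads per library (M, 1000000), and 3 reads equalled 0.133 to 0.1996 CPM. Of the PC-3 markers, KRT8, KRT18, CD44 and VIM were at 252 to 1169 CPM in every library. Of the markers of other cells, COL1A1 (46.6 to 83.0 CPM), PECAM1 (16.8 to 32.7 CPM) and LYZ (2.73 to 6.93 CPM) were detected, while COL1A2, PDGFRB, PTPRC and VWF stayed at 0.601 CPM or less in every library. KLK3 and CD3E were not analysed here. In bulk RNA, fewer cells in S phase and less histone RNA per cell cannot be told apart.

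All 57 members had the histone stem-loop within 100 bases after their stop codon on hg38, and all 57 canonical transcripts (GENCODE release 44) were a single exon, with a median length of 487 bases. In the same release 12 members, among them H2AC6, H2BC4, H2BC5 and H4C15, also have a spliced transcript. The stem-loop is shown because it sets these RNAs apart from the rest of a poly(A)-selected library. In the sequences below, capitals mark the 6 bases on each side that pair in the stem, and lower case marks the 4 loop bases. They are the 4 variants found in more than 1 member:
35 members (H1, H2A, H2B and H3): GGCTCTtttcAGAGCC
7 members (H1-6, H2AC21, H2BC4, H2BC5, H2BC7, H2BC11, H2BC12): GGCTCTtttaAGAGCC
7 members (all H4): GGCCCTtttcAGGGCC
4 members (H4C9, H4C12, H4C14, H4C15): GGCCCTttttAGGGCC

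All 11 H4 members carried the left arm GGCCCT and all other members but one carried GGCTCT. The remaining 4 members (H2AC11, H2AC15, H2AC20 and H3C6) each had a variant of their own. In 4 of 57 members (7.02%) the poly(A) signal AATAAA, searched on the sense strand, started within 50 bases after the stem-loop. These were H1-2, H2AC18, H2AC19 and H2BC5, all among the 10 members with the highest mean CPM. The search window was chosen after levels and sequences had been seen. The sites are shown on the sense strand with 10 bases on each side and the signal in capitals, at chr6:26055716-26055741 (minus), chr1:149842194-149842219 (minus), chr1:149851593-149851618 (plus) and chr6:26158605-26158630 (plus):
H1-2: cactgatctcAATAAAagagctggat
H2AC18: cacgttttcaAATAAAagagttgtta
H2AC19: cacgttttcaAATAAAagagttgtta
H2BC5: gcatgttttcAATAAAtgagttgtaa

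In H1-2 and H2BC5 the signal began 12 bases after the stem-loop, and in the H2AC18 and H2AC19 copies 13 bases after it. H4C11 had the same letters before its stem-loop.

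Of the 57 members, 53 had a promoter in the RefSeq table (GRCh38.p14, 250 bases before to 50 after the start). The letters CCAAT on either strand were in 45 of 53, against 34.6% of 35116 promoters of the same length, and in all 5 H1, 14 H2A, 15 H2B and 10 H3 promoters but 1 of 9 H4 promoters. TATAAA on the sense strand was in 31 of 53, against 7.33%. The octamer ATTTGCAT on either strand, the sequence bound by POU2F1, was in 23 of 53, against 1.77%. It was in 12 of 15 H2B, 10 of 14 H2A and 1 of 10 H3 promoters, and in none of the 5 H1 and 9 H4 promoters. H2A and H2B counts are not independent, because 10 pairs of an H2A and an H2B gene lie head to head with 193 to 250 bases between their starts and share that stretch.

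The stretches between H2BC8 and H2AC8 and between H2BC21 and H2AC20 are printed, since the genes on their sides lay far apart in log2 ratio (below). Both are on the hg38 plus strand, and capitals mark the letters CCAAT, the letters TATAAA and the octamer on either strand. The first lies at chr6:26216689-26216920 (232 bases) and the second at chr1:149886683-149886917 (235 bases). In each, the H2B gene is transcribed leftward and the H2A gene rightward.
H2BC8 to H2AC8: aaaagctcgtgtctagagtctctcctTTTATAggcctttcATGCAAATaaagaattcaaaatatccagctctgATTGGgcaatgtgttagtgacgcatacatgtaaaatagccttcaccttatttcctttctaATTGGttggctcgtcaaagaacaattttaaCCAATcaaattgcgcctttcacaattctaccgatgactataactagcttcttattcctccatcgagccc
H2BC21 to H2AC20: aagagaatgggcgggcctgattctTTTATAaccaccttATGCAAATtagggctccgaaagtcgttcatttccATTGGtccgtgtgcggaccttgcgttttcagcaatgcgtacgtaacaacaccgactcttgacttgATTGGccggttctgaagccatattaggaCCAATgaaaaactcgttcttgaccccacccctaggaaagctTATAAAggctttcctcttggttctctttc

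The promoters of H1-2 and H1-3, linker histone genes whose day 7 values lay on opposite sides of untreated, are shown on their sense strand from RefSeq (chr6:26056421-26056720 and chr6:26234938-26235237, both minus). Capitals mark CCAAT, at position -57 in H1-2 and -55 in H1-3 relative to the start, and TATAAA, at -30 in H1-3.
H1-2: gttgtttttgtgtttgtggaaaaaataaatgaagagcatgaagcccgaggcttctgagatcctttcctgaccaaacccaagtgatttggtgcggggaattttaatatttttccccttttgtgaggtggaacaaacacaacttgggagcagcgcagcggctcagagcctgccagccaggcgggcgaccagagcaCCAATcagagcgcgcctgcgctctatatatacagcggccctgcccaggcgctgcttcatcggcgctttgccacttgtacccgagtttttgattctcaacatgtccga
H1-3: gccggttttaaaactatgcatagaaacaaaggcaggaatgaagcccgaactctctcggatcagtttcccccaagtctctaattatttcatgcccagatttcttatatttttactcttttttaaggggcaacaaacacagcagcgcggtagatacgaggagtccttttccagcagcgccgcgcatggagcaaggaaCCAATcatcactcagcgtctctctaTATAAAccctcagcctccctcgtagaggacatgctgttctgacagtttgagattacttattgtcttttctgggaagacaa

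Histone cluster RNA was concentrated in few members. The summed CPM of the 57 members was 706, 722 and 777 in untreated spheroids on days 0, 3 and 7, 1133 and 1148 under CONV-TOPO (day 3, then day 7), and 1103 and 1297 under EE-TOPO. All 4 treated libraries thus lay above all 3 untreated ones. The 9 members with a mean of at least 20 CPM (H2BC12, H1-2, H2AC18, H2AC19, H2BC21, H4C15, H2BC4, H2AC6 and H2BC5) held 89.2% to 94.1% of it, the 11 members with a mean of 2 to 20 CPM held 4.99% to 8.21%, and the 37 members under 2 CPM held 0.872% to 2.56%. Per kilobase of canonical transcript, H2BC12 was highest with a mean of 464 CPM, followed by H4C15 (206) and H1-2 (205). This order rests on canonical length. The listed spans are 8566 bases for H2BC12, 28503 for H4C15 and 731 for H1-2, and the span over which reads were counted was not tested. H4C15 and H1-2 overlapped in their values over the libraries.

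Of the 57 members, 38 passed the filter on low values (10 reads at the median depth, 0.565 CPM, in at least 2 of the 6 libraries of days 3 and 7), among 14731 genes. They were 3 H1, 9 H2A, 12 H2B, 8 H3 and 6 H4 genes. The other 19 members together summed to 1.67 to 5.39 CPM per library, and 16 of them stayed under 0.565 CPM in every library. H2BC17, H4C12 and H4C5 passed through treated libraries alone, and H3C1 and H3C3 through untreated libraries alone, so counts over the 38 do not stand for all 57.

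**Figure D1:**
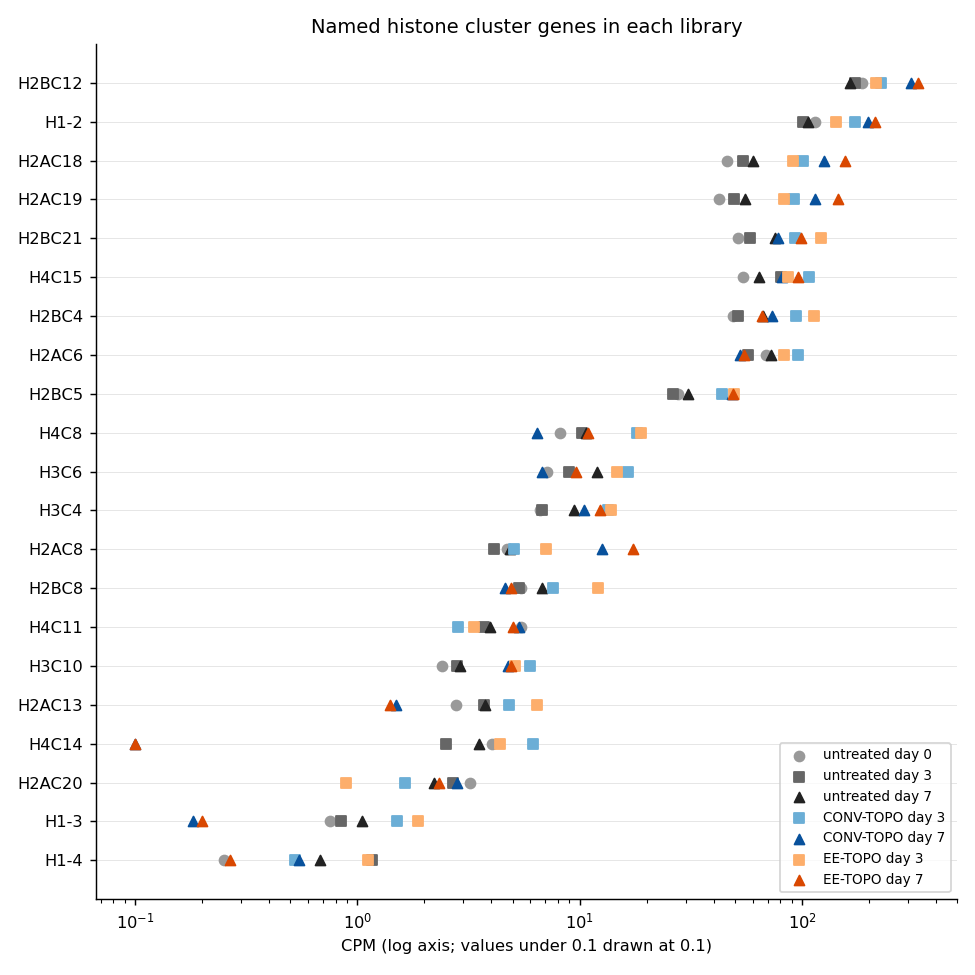
CPM of the named histone cluster genes (log axis, values under 0.1 drawn at 0.1) in each of the 7 libraries, 1 point per library, ordered by mean CPM. For H2BC12, H1-2, H2AC18, H2AC19 and H2BC5 all treated points lie to the right of all untreated points, while for H1-3, H2AC13 and H4C14 the day 7 treated points lie to the left of the rest.

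Many members had near-identical copies among which reads can be split. A stretch of 100 identical bases was shared with another gene by 20 members, and H2AC18 with H2AC19, H3C14 with H3C15, and H4C14 with H4C15 have identical listed coordinates in the table. The listed spans of these 6 members also overlap one another across the 3 histone types, and whether reads were shared between the types was not tested. Values of such members are uncertain one by one, and where they matter their sum is given. Of 255 member values between 1 and 100 reads, 221 (86.7%) were whole reads within 0.05 read.

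Each regimen was compared with untreated spheroids of the same day, which asks how histone RNA stood under the drug. In a limma model of treatment and day over the 6 libraries of days 3 and 7, no member passed an adjusted p of 0.05 for either regimen against untreated or for EE-TOPO against CONV-TOPO (0 of 38 in each, lowest adjusted p = 0.907, 0.914 and 1.00), and no gene of all 14731 did (0% in each). At an unadjusted p under 0.05, 8 of 38 members were higher and none lower under EE-TOPO, against 3.56% of all genes in either direction. These were H1-2, H2AC8, H2AC18, H2AC19, H2BC5, H2BC21, H3C4 and H3C10. For CONV-TOPO there were 6 of 38, all higher (H1-2, H2AC18, H2AC19, H2BC5, H2BC12 and H3C10), against 1.73% of all genes. Between the regimens there was none of 38, against 0.876%. Both regimens were set against the same untreated libraries, the error term is the variation of an effect between 2 days, and H2AC18 and H2AC19 are not separate observations.

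The 4 treated libraries lay above all 3 untreated libraries in scaled CPM for 10 of 38 members, against 4.93% of all genes tested, and below them for 1 of 38 (H3C3), against 5.8%. The 10 were H1-2, H2AC18, H2AC19, H2BC4, H2BC5, H2BC12, H2BC21, H3C4, H3C10 and H4C15. They include all members above 20 CPM except H2AC6. Without members that share 100 bases with another gene, 4 of them were left. H3C3 passed the filter through untreated libraries alone, so its place below them was in part set by the filter.

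On day 3, the median log2 ratio to untreated over the 38 members was 0.47 for EE-TOPO and 0.38 for CONV-TOPO, against -0.02 and -0.01 over all genes tested (on log2 of scaled CPM + 1). Under EE-TOPO, 30 members were above and 8 below untreated, against 6985 and 7746 of all 14731 genes tested. On this scale 2 members, H2BC4 and H2BC18, were at least 2-fold higher (1.42% of all genes) and none at least 2-fold lower (0.468%). Under CONV-TOPO, none was at least 2-fold higher (0.658%), and H2AC7, which overlaps H3C4, was at least 2-fold lower (0.387%). The members' values thus lay mostly below a 2-fold difference.

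On day 7, the members' median was -0.05 for EE-TOPO and -0.02 for CONV-TOPO, against -0.04 and -0.05 over all genes. The members ran from -2.12 to 1.85 under EE-TOPO and from -2.12 to 1.44 under CONV-TOPO, against -0.98 to 1.05 and -1.12 to 0.98 on day 3. The lowest day 7 value of each was that of H4C14, a copy of H4C15. Under EE-TOPO, 6 of 38 were at least 2-fold higher (H1-2, H2AC8, H2AC18, H2AC19, H2BC12 and H4C12, against 8.11% of all genes) and 2 at least 2-fold lower (H2BC18 and H4C14, against 10.1%). Under CONV-TOPO, the same numbers were 6 (H1-2, H2AC7, H2AC8, H2AC18, H2AC19 and H2BC12, against 6.93%) and 2 (H2BC18 and H4C14, against 8.91%). H4C12 passed the filter through treated libraries alone, and H2AC18 and H2AC19 are not separate observations, so these counts are not independent evidence beside the shares of all genes.

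The day 7 values differed by level. Over the 9 members above 20 CPM the median log2 ratio on day 7 was 0.87 for EE-TOPO and 0.89 for CONV-TOPO, over the 11 members of 2 to 20 CPM 0.23 and -0.02, and over the 18 tested members under 2 CPM -0.33 and -0.31. On day 3 the same medians were 0.67 and 0.70, 0.59 and 0.39, and 0.17 and 0.21. The levels that divide these groups were chosen after the values were seen. Low members lie close to the pseudocount of 1 CPM, which draws their log2 ratios toward 0.

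**Figure D2:**
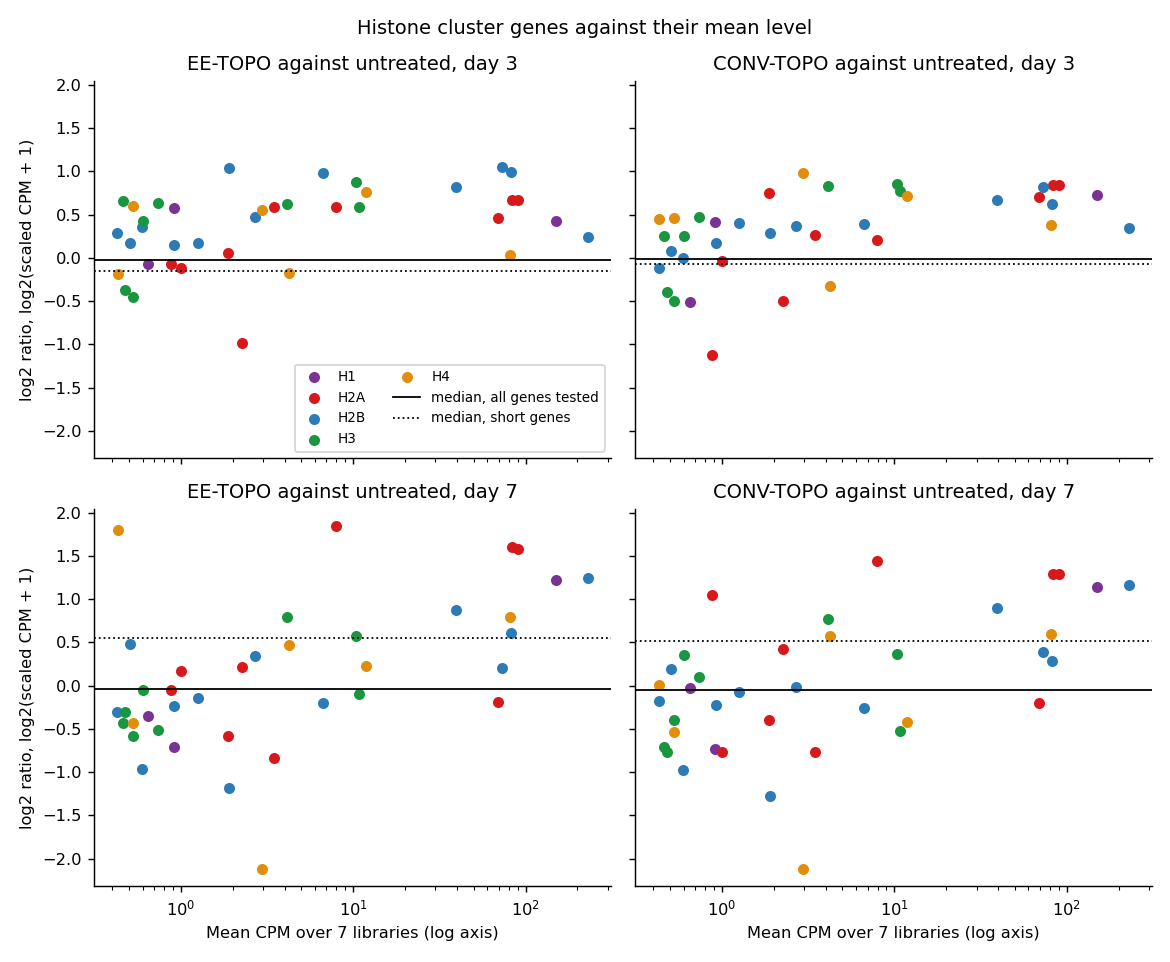
Log2 ratio to untreated of the same day (log2 of scaled CPM + 1) against mean CPM (log axis) for the 38 tested members, coloured by histone type, with the median of all genes tested (solid line) and of 882 short genes (dotted line). On day 3 most members lie above both lines at every level, and on day 7 the members above 20 CPM lie mostly above 0 and those under 2 CPM mostly below it.

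Short genes moved on day 7 as well. The 882 tested genes outside the list that span at most 3000 bases had a median log2 ratio of 0.55 for EE-TOPO and 0.52 for CONV-TOPO on day 7, against -0.15 and -0.07 on day 3. The members' day 3 medians thus lay on the other side of 0 from those of short genes, while the day 7 medians of the 9 abundant members lay on the same side. Of the RNAs without a poly(A) tail, 6 passed the filter. Of these, RN7SL1 (the RNA of the signal recognition particle) was at 81.1, 53.4 and 24.4 CPM in untreated libraries (days 0, 3 and 7), at 62.7 and 97.6 CPM under CONV-TOPO and at 50.9 and 74.5 CPM under EE-TOPO, and the median of the 6 was 0.67 for EE-TOPO and 1.62 for CONV-TOPO on day 7, and -0.10 and 0.15 on day 3. The part of transcript length and of RNA without a tail in the members' values was not tested.

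By histone type, the summed CPM of H2B was highest (323 to 558 CPM, 42.0% to 47.8% of the member total), then H2A (174 to 381), H1 (103 to 214), H4 (73.4 to 137) and H3 (19.04 to 39.1). The order was the same in each library. Folds of summed scaled CPM are given with exact 95% intervals from the estimated reads, which cover counting error only.

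For all members, EE-TOPO was 1.46-fold (1.43 to 1.49) and CONV-TOPO 1.52-fold (1.49 to 1.56) untreated on day 3. On day 7 these were 1.95-fold (1.91 to 1.99) and 1.76-fold (1.72 to 1.80). H1 was 1.35-fold (1.27 to 1.42) under EE-TOPO and 1.65-fold (1.56 to 1.75) under CONV-TOPO on day 3, and 2.30-fold (2.18 to 2.43) and 2.19-fold (2.07 to 2.32) on day 7. Nearly all H1 reads were those of H1-2.

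H2A was 1.4955-fold (1.43 to 1.56) under EE-TOPO and 1.68-fold (1.61 to 1.76) under CONV-TOPO on day 3, and 2.19-fold (2.10 to 2.28) and 1.83-fold (1.75 to 1.91) on day 7. H2B was 1.56-fold (1.51 to 1.61) and 1.43-fold (1.38 to 1.48) on day 3, and 1.85-fold (1.79 to 1.91) and 1.75-fold (1.69 to 1.81) on day 7. With TMM factors H1, H2A and H2B were thus all further from untreated on day 7 than on day 3 under both regimens. With library totals this order turned for H2B under EE-TOPO (log2 ratio 0.71 on day 3 and 0.66 on day 7), for H2B under CONV-TOPO (0.561 and 0.554) and for H2A under CONV-TOPO (0.798 and 0.617), and it held for H1 under both regimens and for H2A under EE-TOPO.

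H3 was further from untreated on day 3, with 1.73-fold under both regimens on day 3 (1.53 to 1.95 for EE-TOPO and 1.52 to 1.96 for CONV-TOPO), but 1.21-fold (1.06 to 1.37) under EE-TOPO and 1.01-fold (0.889 to 1.15) under CONV-TOPO on day 7. With library totals in place of TMM factors the H3 sum under CONV-TOPO on day 7 was below untreated, with a log2 ratio of -0.23. H4 was 1.11-fold (1.05 to 1.18) and 1.35-fold (1.27 to 1.44) on day 3, and 1.61-fold (1.501 to 1.72) and 1.35-fold (1.25 to 1.45) on day 7. The sums rested on few members. Without the members with described polyadenylated transcripts, the day 7 log2 ratios of EE-TOPO and CONV-TOPO were -1.39 and -0.58 for H1, where H1-2 is left out, and -0.35 and -0.52 for H2B. These H1 values rest on few reads. On day 7, H1-3 had 3 reads under each regimen and 20 untreated. H1-4 had 4 under EE-TOPO, 9 under CONV-TOPO and 13 untreated, and H1-5 and H1-6 had at most 5. Without members that share sequence with a near-identical copy, CONV-TOPO on day 7 was at -0.013 for H2A, -0.18 for H3 and -0.47 for H4. With 1 library a point these differences have no replicate check.

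**Figure D3:**
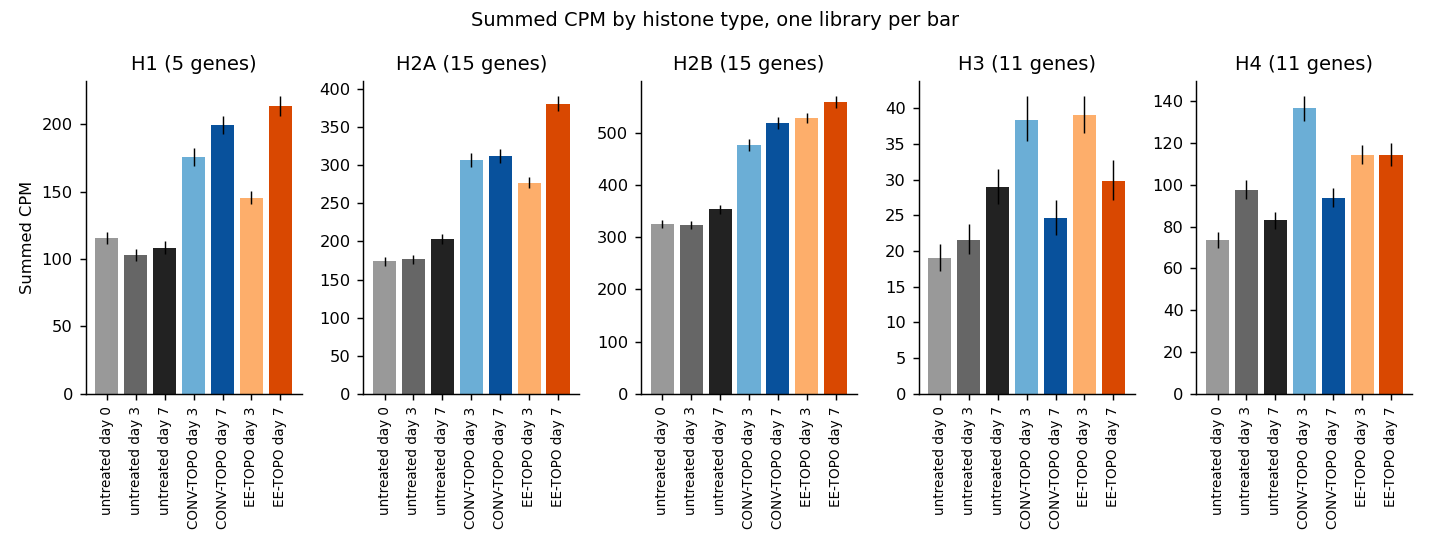
Summed CPM of each histone type in each of the 7 libraries, 1 bar per library, with exact 95% Poisson intervals of the estimated reads as error bars. H1, H2A and H2B are higher in all 4 treated libraries than in all 3 untreated ones, and H3 is highest in the 2 treated libraries of day 3.

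Among the H1 members, H1-2 (ENSG00000187837, chr6:26055740-26056470, minus strand, 1 exon) encodes the linker histone H1.2. It was at 114, 101 and 107 CPM in untreated libraries (days 0, 3 and 7), at 173 and 198 CPM under CONV-TOPO (day 3, then day 7), and at 142 and 213 CPM under EE-TOPO. The treated libraries did not overlap the untreated ones, and day 7 was above day 3 under each regimen. The limma log2 fold change was 0.82 (SE 0.27) for EE-TOPO and 0.94 (SE 0.27) for CONV-TOPO, with adjusted p = 0.907 and 0.914 (n = 2 libraries per treatment).

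H1-3, which encodes H1.3, had 15 to 20 reads in the untreated libraries, namely 0.751, 0.845 and 1.05 CPM on days 0, 3 and 7. It was at 1.51 CPM under CONV-TOPO and 1.87 CPM under EE-TOPO on day 3, but at 0.182 and 0.1996 CPM on day 7, which is 3 reads in each library. The day 7 treated values were thus the lowest, with a fold of 0.207 (0.0394 to 0.697) for CONV-TOPO and 0.222 (0.0422 to 0.748) for EE-TOPO. H1-4 stayed between 0.250 and 1.16 CPM, and its untreated and treated values overlapped.

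The H2A members H2AC18 and H2AC19 (near-identical copies on chromosome 1, canonical transcripts at chr1:149842218-149842750, minus strand, and chr1:149851061-149851594, plus strand) are given as their sum. It was 88.3, 103 and 116 CPM in untreated libraries (days 0, 3 and 7), 192 and 239 CPM under CONV-TOPO (day 3, then day 7), and 174 and 302 CPM under EE-TOPO. All treated values exceeded all untreated ones. The fold on day 7 was 3.05 (2.90 to 3.21) under EE-TOPO and 2.46 (2.34 to 2.60) under CONV-TOPO.

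H2AC6 (chr6:26124172-26124690) was at 69.2, 57.2 and 72.6 CPM in untreated libraries, at 96.4 and 52.8 CPM under CONV-TOPO (day 3, then day 7), and at 83.1 and 54.6 CPM under EE-TOPO. It was the abundant member that lay above untreated on day 3 and below it on day 7, with folds of 1.63 (1.51 to 1.77) and 0.867 (0.795 to 0.944) for CONV-TOPO. For EE-TOPO the folds were 1.39 (1.29 to 1.49) and 0.878 (0.804 to 0.958).

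H2AC8 (chr6:26216921-26217437) was at 4.71, 4.12 and 4.88 CPM in untreated libraries, at 5.07 and 12.6 CPM under CONV-TOPO (day 3, then day 7), and at 7.07 and 17.4 CPM under EE-TOPO. Its day 7 folds were 3.08 (2.40 to 3.98) for CONV-TOPO and 4.15 (3.27 to 5.32) for EE-TOPO, while on day 3 under CONV-TOPO the interval included 1 (1.19, 0.858 to 1.65). In log2 ratio it was the highest of the members above 2 CPM on day 7 in both pairs.

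H2AC13 was at 2.78, 3.73 and 3.76 CPM in untreated libraries, at 4.82 and 1.49 CPM under CONV-TOPO, and at 6.44 and 1.40 CPM under EE-TOPO on days 3 and 7. As for H1-3, its day 7 treated values were the lowest of the 7. H2AC20 was at 3.21, 2.69 and 2.21 CPM untreated, at 1.65 and 2.80 CPM under CONV-TOPO and at 0.890 and 2.33 CPM under EE-TOPO, so its 2 lowest values were those of treated day 3 libraries. Both share 100 bases with another H2A gene.

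Among the H2B members, H2BC12 (chr6:27146361-27146855, minus strand) was the most abundant of all. It was at 185, 173 and 164 CPM in untreated libraries, at 227 and 309 CPM under CONV-TOPO (day 3, then day 7), and at 215 and 333 CPM under EE-TOPO. Its fold was 1.27 (1.21 to 1.33) and 1.19 (1.13 to 1.24) on day 3 for CONV-TOPO and EE-TOPO, and 2.24 (2.14 to 2.35) and 2.37 (2.27 to 2.48) on day 7. It shares 100 bases with the gene H2BC12L.

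H2BC21 (chr1:149884459-149886682, minus strand), whose canonical transcript of 2224 bases is the longest of the members, was at 51.4, 58.2 and 75.8 CPM in untreated libraries. It was at 92.8 and 77.7 CPM under CONV-TOPO and at 122 and 99.3 CPM under EE-TOPO on days 3 and 7. Untreated day 7 was 1.38-fold (1.27 to 1.49) day 0. In deposited CPM it lay near CONV-TOPO day 7, which with TMM factors was above it (log2 ratio 0.28).

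H2BC4 (chr6:26123467-26123926, minus strand) was at 48.8, 51.5 and 66.5 CPM in untreated libraries, at 94.4 and 73.4 CPM under CONV-TOPO, and at 113 and 65.8 CPM under EE-TOPO. It was highest on day 3 under both regimens. For EE-TOPO on day 7 its direction depended on the scaling, since the deposited CPM was slightly below untreated and the scaled CPM 1.15-fold (1.06 to 1.26) above it.

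H2BC5 (chr6:26158122-26158607) was at 27.6, 26.2 and 30.7 CPM untreated and at 43.6, 48.7, 49.3 and 49.0 CPM in the treated libraries (CONV-TOPO days 3 and 7, EE-TOPO days 3 and 7). The treated values did not overlap the untreated ones, and the limma log2 fold change was 0.85 (SE 0.23) for EE-TOPO and 0.78 (SE 0.23) for CONV-TOPO, with adjusted p = 0.907 and 0.914.

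H2BC8 (chr6:26216200-26216688, minus strand) was at 5.46, 5.34 and 6.77 CPM untreated, at 7.57 and 4.62 CPM under CONV-TOPO, and at 12.1 and 4.92 CPM under EE-TOPO on days 3 and 7. In deposited CPM its EE-TOPO day 3 value was the highest, and its day 7 treated values were the lowest. With TMM factors the day 7 treated values of H2BC8 were not below untreated day 3. H2BC18, named after its values were seen, was at 5.47 CPM under EE-TOPO on day 3 and at 0.195 and 0.266 CPM under CONV-TOPO and EE-TOPO on day 7, against 0.503, 2.01 and 2.05 CPM untreated, and it shares sequence with H2BC21.

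The most abundant H3 members, all of which encode H3.1, were less abundant than the leading members of H1, H2A, H2B and H4. H3C6 (chr6:26225135-26225616) was at 7.16, 8.93 and 12.03 CPM untreated, at 16.4 and 6.75 CPM under CONV-TOPO and at 14.7 and 9.58 CPM under EE-TOPO on days 3 and 7. H3C4 (chr6:26196784-26197286, minus strand) was at 6.61, 6.74 and 9.40 CPM untreated, at 13.4 and 10.5 CPM under CONV-TOPO and at 13.9 and 12.4 CPM under EE-TOPO. Its treated values did not overlap the untreated ones, whereas those of H3C6 did.

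H3C10 (chr6:27810051-27810536) was at 2.40, 2.80 and 2.89 CPM untreated, at 5.99 and 4.74 CPM under CONV-TOPO and at 5.12 and 4.92 CPM under EE-TOPO. All treated values exceeded all untreated ones, and the 4 folds lay between 1.74 (1.25 to 2.46) and 2.07 (1.46 to 2.96). The H3.2 copies H3C14 and H3C15, named after their values were seen, summed to 64 reads under EE-TOPO on day 3 and to 13 to 22 reads in the other 6 libraries. That is 3.21-fold (1.83 to 5.95) untreated of day 3.

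All H4 members encode the same protein. H4C14 and H4C15 (copies with the same listed coordinates) summed to 58.4, 82.8 and 67.6 CPM untreated, to 114 and 81.5 CPM under CONV-TOPO and to 90.5 and 95.8 CPM under EE-TOPO on days 3 and 7. In deposited CPM the untreated and treated ranges of this sum overlapped. With TMM factors they did not, but the day 3 fold of EE-TOPO was only 1.04 (0.974 to 1.11). Taken alone, H4C14 was at 2.51 to 4.05 CPM untreated and under 1 read in both treated libraries of day 7, where H4C15 was at 81.5 and 95.8 CPM. How reads were divided between the copies, or with the H2A and H3 members whose listed spans overlap theirs, was not tested.

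H4C8 (chr6:26285126-26285534, minus strand) was at 8.12, 10.2 and 10.7 CPM untreated, at 18.03 and 6.44 CPM under CONV-TOPO and at 18.9 and 10.8 CPM under EE-TOPO on days 3 and 7. It was highest on day 3 under both regimens, and on day 7 only the CONV-TOPO value lay below all untreated values. H4C11, which shares 100 bases with H4C12, was at 5.43, 3.72 and 3.94 CPM untreated, at 2.83 and 5.35 CPM under CONV-TOPO and at 3.33 and 5.01 CPM under EE-TOPO.

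Genes of a head-to-head pair did not always stand alike. In 7 of the 10 pairs both genes passed the filter. H2BC8 and H2AC8, which share the 232 bases printed above, had day 7 log2 ratios of -0.20 and 1.85 for EE-TOPO and of -0.26 and 1.44 for CONV-TOPO, whereas on day 3 both were above untreated (0.98 and 0.59 for EE-TOPO, 0.39 and 0.20 for CONV-TOPO). H2BC21 and H2AC20 were on opposite sides of untreated on day 3, with 0.99 and -0.98 for EE-TOPO and 0.62 and -0.50 for CONV-TOPO, and on the same side on day 7. H2BC4 and H2AC6 were both above untreated on day 3 and at 0.20 and -0.19 for EE-TOPO on day 7. H2AC7 and H2BC7 were at 1.05 and -0.97 for CONV-TOPO on day 7, with 5 reads of H2AC7 in the untreated library and 1 read of H2BC7 under CONV-TOPO. For EE-TOPO on day 7 both were below untreated (-0.05 and -0.97). H2AC7 overlaps H3C4.

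**Figure D4:**
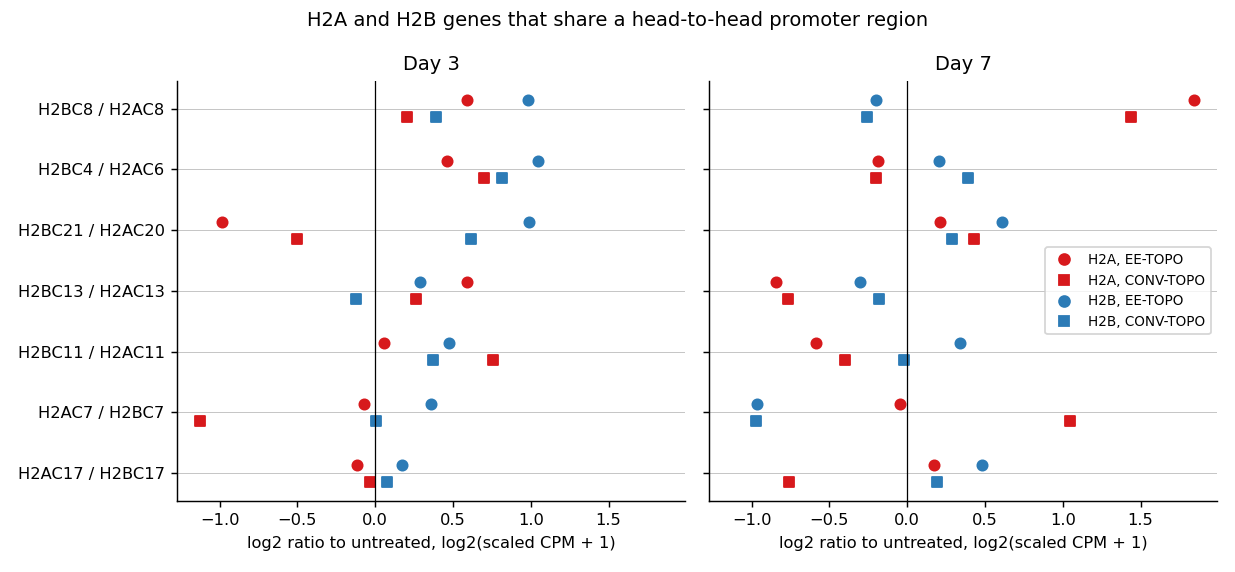
Log2 ratio to untreated of the same day (log2 of scaled CPM + 1) for the 7 head-to-head pairs in which both the H2A gene and the H2B gene (separate colours) were tested, for EE-TOPO (circles) and CONV-TOPO (squares). H2AC8 lies far to the right of H2BC8 on day 7, and H2AC20 to the left of H2BC21 on day 3.

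EE-TOPO was set against CONV-TOPO of the same day to ask whether the schedule made a difference. For the summed CPM of all members the fold was 0.958 (0.939 to 0.977) on day 3, and day 7 gave 1.11 (1.09 to 1.13). Taking day 3 first and day 7 second, the folds were 0.816 (0.775 to 0.859) and 1.05 (1.00 to 1.10) for H1, and 0.824 (0.777 to 0.873) and 1.19 (1.11 to 1.28) for H4. They were 0.888 (0.855 to 0.923) and 1.20 (1.15 to 1.24) for H2A, 1.09 (1.06 to 1.12) and 1.06 (1.02 to 1.09) for H2B, and 1.00 (0.900 to 1.11) and 1.19 (1.04 to 1.36) for H3. H1, H2A and H4 were thus lower under EE-TOPO on day 3 and not on day 7, in single libraries. The day 3 direction turned for H1 without the described polyadenylated members (log2 ratio 0.56) and for H4 without near-identical copies (0.079). The H1 members left had at most 42 reads each in these day 3 libraries.

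On day 3 the members' median log2 ratio between the regimens (EE-TOPO over CONV-TOPO) was 0.07, and on day 7 0.04, against 0.00 and -0.01 over all genes. On day 3, 1 member was at least 2-fold higher (H2AC7, against 0.36% of all genes) and none at least 2-fold lower (0.285%). On day 7, 1 was higher (H4C12, against 0.964%) and 1 lower (H2AC7, against 0.638%). Both share sequence with another gene. Among members without a shared stretch, H2BC8 was 1.58-fold (1.27 to 1.98) CONV-TOPO on day 3, and H4C8 was 1.65-fold (1.28 to 2.13) on day 7.

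Untreated spheroids also differed between days. Relative to day 0, the fold of the sum of all members was 0.964 (0.941 to 0.987) on day 3, and 1.03 (1.00 to 1.05) on day 7. None of 38 members was at least 2-fold higher or lower on day 3 (1.6% and 0.353% of all genes), and on day 7 none was higher (1.52%) and 1 lower (H2AC7, against 0.163%). The H4C15 level on day 3 was 1.40-fold (1.29 to 1.51) and the H3C6 level on day 7 1.57-fold (1.27 to 1.94) that of day 0. Members with few reads lay further apart, such as H2BC18, which was 3.77-fold (1.85 to 8.51) day 0 on day 3 from 38 and 10 reads, and H1-4, which was 4.38-fold (1.62 to 14.8) from 22 and 5 reads.

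Other histone and S-phase genes stood differently from the members. On day 3, 19 of 20 S-phase genes (among them MCM2 to MCM7, PCNA and RRM2) were below untreated in each regimen, with a median log2 ratio of -0.50 for EE-TOPO and -0.49 for CONV-TOPO, on the day when 30 of 38 members were above it. Of all genes tested, 7746 were below and 6985 above untreated for EE-TOPO on day 3, and 7575 and 7156 for CONV-TOPO. On day 7 the medians of the S-phase genes were 0.11 and 0.18. For RRM2, a subunit of ribonucleotide reductase, the untreated day 3 value of 320 CPM was itself far above that of day 0 (167 CPM) and day 7 (168 CPM), and the treated day 3 values were 203 and 196 CPM. Both treated day 3 values of RRM2 were thus above untreated day 0 and below untreated day 3. RRM2 had the highest log2 ratio of untreated day 3 to day 0 of the 20 S-phase genes (0.85). Their median was 0.13, with 13 genes above day 0 and 7 below it, against 7385 and 7345 of all genes tested.

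The 12 replication-independent histone genes had medians of -0.32 and -0.16 on day 3 and of 0.44 and 0.41 on day 7 for EE-TOPO and CONV-TOPO. Among them, H2AX was at 267 and 290 CPM under CONV-TOPO and EE-TOPO on day 7 against 165 to 199 CPM untreated. The 17 histone chaperones had medians of -0.26 and -0.24 on day 3 and -0.18 and -0.06 on day 7. Of the 16 genes of histone transcript synthesis and 3' processing (medians 0.01 and -0.18 on day 3, -0.02 and -0.01 on day 7), CASP8AP2, which is needed for histone gene transcription, was at 4.25 and 2.99 CPM under CONV-TOPO and EE-TOPO on day 7 against 7.97 to 15.1 CPM untreated, while SLBP stayed at 40.8 to 49.7 CPM in all 7 libraries. None of these genes passed an adjusted p of 0.05 in limma. At an unadjusted p under 0.05, 1 of the 16 (CCNE2) was lower and 1 of the 6 RNAs without a poly(A) tail was higher under CONV-TOPO, against 1.73% of all genes. None of the S-phase genes, replication-independent histones and chaperones passed in any of the 3 comparisons. The shares of all genes were 3.56% for EE-TOPO, 1.73% for CONV-TOPO and 0.876% between the regimens.

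The 6 members with described polyadenylated transcripts (H1-2, H2AC6, H2BC4, H2BC5, H2BC12 and H2BC21) held 62.9% to 70.3% of the member total. Their medians were 0.64 for EE-TOPO and 0.68 for CONV-TOPO on day 3 and 0.74 and 0.64 on day 7, while the other 32 tested members had 0.45 and 0.33 on day 3 and -0.12 and -0.13 on day 7. The summed CPM of the other 51 members was nevertheless 2.16-fold (2.08 to 2.24) untreated under EE-TOPO and 1.78-fold (1.71 to 1.84) under CONV-TOPO on day 7, a sum in which H2AC18, H2AC19 and H4C15 weigh most.

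**Figure D5:**
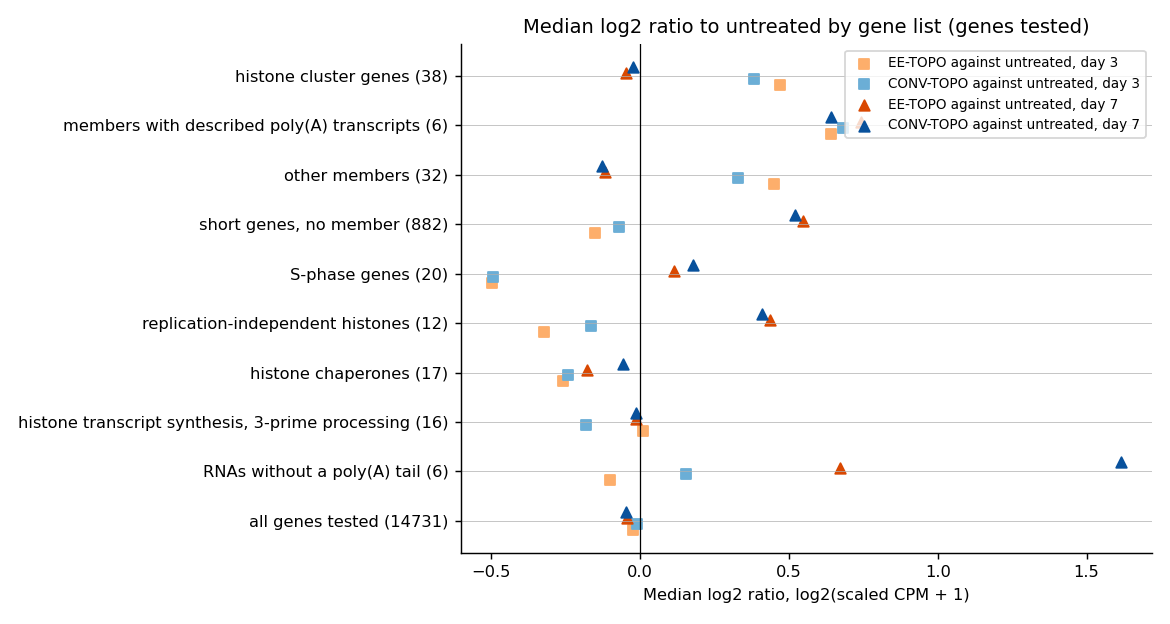
Median log2 ratio to untreated of the same day (log2 of scaled CPM + 1) for the members, their parts and the lists of other genes, with the number of genes tested in parentheses. The members lie above 0 and the S-phase genes below 0 on day 3, and short genes and replication-independent histones lie above 0 on day 7.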

How the data were processed

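Spheroids of PC-3 cells were profiled by RNA-seq. The authors, who used Partek Flow, aligned reads with STAR to hg38, scaled read counts per gene to CPM and deposited CPM. The values carry an offset of 0.0001, which was subtracted. The deposited CPM of low genes stood on steps of 1 read, from which the depth was estimated (15.03 M to 22.5 M reads per library, median 18.9 M, where M is 1000000). This sets the counting error, and intervals and floors cover counting error only.

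CPM were scaled by TMM factors (0.883 to 1.09) and compared as log2(scaled CPM + 1), a scale that understates the change of low genes. Treatment and day were fitted by limma 3.58.1 (R 4.3.3, trend) over the 6 libraries of days 3 and 7, with Benjamini-Hochberg adjustment over 14731 genes and a threshold of 0.05. Pairs of single libraries have no test. Their folds carry exact conditional binomial 95% intervals. The test and the scaling were tested on simulated data. The simulated treatment effects were the same on both days, so the test was not tried on effects that differ between days. Sequences were read from hg38 (GENCODE 44) and RefSeq promoters (GRCh38.p14) with pysam 0.24.0, and other steps used Python 3.11.15, numpy 2.4.6, pandas 2.3.3 and scipy 1.17.1.

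Named members were those with the 14 highest mean CPM, the 3 highest of each type, and, in each pair involving a drug, the 2 highest and 2 lowest log2 ratios among members with a mean of at least 2 CPM. Members outside this rule that are named were chosen after their values were seen. The members and the gene lists (S-phase genes, replication-independent histones, chaperones, transcript synthesis and processing, described polyadenylated members, RNAs without a tail, short genes, cell type markers) were chosen with earlier results of these data known. Alternatives were other scalings, pseudocounts, filters, baselines and models, and the members without copies or without described polyadenylated transcripts. The day 1 libraries (3) were not analysed here. Values of some genes of the marker and histone lists are not reported here.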

Additional observations from a re-analysis of the deposited data

Results flagged for a closer look

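For 8 named members the log2 ratio to untreated had one sign on day 3 and the opposite sign on day 7 under both regimens. The difference between the days was not tested, and on each day both regimens were set against the same untreated library. The values are the mean log2 ratio of the regimens on day 7 minus that on day 3.

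Above untreated on day 3 and below it on day 7 were H1-3 (-1.215, from 0.50 to -0.72), H2AC13 (-1.228, from 0.43 to -0.80), H2AC6 (-0.7745, from 0.58 to -0.19), H2BC8 (-0.9176, from 0.69 to -0.23), H3C6 (-0.9905, from 0.68 to -0.31) and H4C14 (-2.888, from 0.77 to -2.12). H4C14 is a copy of H4C15 with the same listed coordinates, and the sum of both was above untreated on day 7. H1-3 had 3 reads in each treated library of day 7.

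Below untreated on day 3 and above it on day 7 were H2AC20 (1.063, from -0.74 to 0.32) and H4C11 (0.7718, from -0.25 to 0.52). Both share 100 bases with another histone gene.

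Several of these signs lie within counting error. The 95% counting interval of the fold included 1 for H2BC8 on day 7 under EE-TOPO (0.629 to 1.14) and CONV-TOPO (0.604 to 1.09), for H3C6 on day 7 under EE-TOPO (0.74997 to 1.15), for H4C11 on day 3 under EE-TOPO (0.613 to 1.21) and CONV-TOPO (0.495 to 1.10), and for H2AC20 on day 7 under EE-TOPO (0.764 to 1.98) and CONV-TOPO (0.972 to 2.35). It also included 1 for H1-3 (0.877 to 3.51) and H2AC13 (0.882 to 1.74) on day 3 under CONV-TOPO.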

How the results depend on the processing

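The number of members that passed an adjusted p of 0.05 in limma was 0 under all 33 alternatives. Of 176 alternative values of the sums by histone type, 85 moved by more than the limit set and 21 changed sign. Of 40 alternative values of the sum of all members, 28 moved by more than the limit set and 2 changed sign. Library totals moved the all-gene median on day 7 from -0.04 to -0.24 for EE-TOPO and from -0.05 to -0.26 for CONV-TOPO.

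Of 64 alternative medians over the members, 57 moved by less than the limit set and 7 moved by more, and 8 of the 64 changed sign. With a pseudocount of 0.1 CPM the day 3 medians were 0.68 for EE-TOPO and 0.62 for CONV-TOPO, without a filter 0.19 for CONV-TOPO, and over members of at least 5 CPM 0.67 and 0.71 on day 3, and 0.70 and 0.49 on day 7 in place of -0.05 and -0.02. The cause was not tested. In the order EE-TOPO and CONV-TOPO against untreated on day 3, the same on day 7, EE-TOPO against CONV-TOPO on days 3 and 7, and untreated days 3 and 7 against day 0, the number of members at least 2-fold away was 2, 1, 8, 8, 1, 2, 0 and 1. With the pseudocount of 0.1 CPM it was 10, 9, 17, 15, 3, 6, 4 and 7. Over members of at least 5 CPM it was 1, 0, 5, 5, 0, 0, 0 and 0, and without copies 1, 0, 2, 2, 0, 0, 0 and 0. With library totals the first 2 were 4 and 2 and the last 2 were 1 and 2. Without described polyadenylated members the first was 1, against day 0 the first 2 were 4 and 2 and CONV-TOPO on day 7 had 4, and without a filter EE-TOPO against CONV-TOPO on day 3 had 2.

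The log2 ratios of the summed CPM, in the same order, were 0.54, 0.61, 0.96, 0.82, -0.06, 0.15, -0.05 and 0.04. With library totals the first 4 were 0.61, 0.65, 0.74 and 0.56 and the last 2 were 0.031 and 0.14. With median-of-ratios factors day 7 was 1.00 and 0.85. Without copies they were 0.66, 0.72, 0.65 and 0.60, with 0.047 for EE-TOPO against CONV-TOPO on day 7 and -0.19 for untreated day 3. Without described polyadenylated members the EE-TOPO values were 0.50 and 1.11, EE-TOPO against CONV-TOPO -0.13 and 0.28, and untreated 0.19 and 0.21. Against untreated day 0 the first 4 were 0.49, 0.55, 1.00 and 0.85, and against the mean of untreated 0.49, 0.56, 1.01 and 0.86. Added after the data were seen, the 10 members with all treated libraries above all untreated ones became 4 without copies and 5 without described polyadenylated members, and the 1 below them became 3 without a filter. At these depths members under 0.2 CPM cannot be told from 0.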

Other observations

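Histone genes outside the naming pattern gave further values. H2AW, an H2A gene on chromosome 1, was at 23.3, 15.7 and 21.1 CPM in untreated libraries (days 0, 3 and 7), at 25.7 and 23.5 CPM under CONV-TOPO (day 3, then day 7) and at 22.2 and 27.9 CPM under EE-TOPO. All treated values but that of EE-TOPO on day 3 were above the 3 untreated ones. H2BU1 was at 0.551, 0.476 and 0.735 CPM untreated, at 0.790 and 0.304 CPM under CONV-TOPO and at 1.29 and 0.399 CPM under EE-TOPO. Its day 7 treated values were the lowest, but at this level they rest on few reads, and no counting interval is given for them.
H4-16, which encodes the same H4 protein, was at 0.211 to 0.551 CPM untreated and at 0.399 to 1.11 CPM with the drug.

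Among genes of histone transcription, NPAT, the activator of histone genes, was at 17.5, 24.5 and 23.4 CPM untreated, at 26.8 and 10.3 CPM under CONV-TOPO (day 3, then day 7) and at 26.1 and 11.5 CPM under EE-TOPO. CCNE2, a cyclin of the start of S phase, was at 6.54, 12.2 and 7.68 CPM untreated, at 8.29 and 1.89 CPM under CONV-TOPO and at 9.33 and 2.37 CPM under EE-TOPO. For both genes the treated values of day 7 were below all other values.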
